A study of Mus musculus with 6 samples.

Results

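The genes described here encode the contractile apparatus of smooth muscle, the cell type of the muscle coat of the colon. They are 37 listed genes, among them the smooth muscle actins Acta2 and Actg2, the myosin heavy chain Myh11, the intermediate filament protein desmin (Des) and the calcium regulator phospholamban (Pln). For each gene the brightest probe set, by its mean over the 6 arrays, was taken from those annotated to that gene alone. All 37 had such a probe set, out of 18193 genes measured, and 22 of them had more than 1, giving 83 probe sets in all. Expression was measured on 6 arrays of total RNA from large intestine of untreated female C57BL/6J mice, 3 labelled proximal colon and 3 labelled distal colon, to compare the regions. Per the design text 3 animals gave tissue of both regions. No transgene or agent is named in the labels, and the labels used here give neither the age of the mice nor which layers of the wall were taken. Values are log2 expression, so a difference of 1 is a 2-fold change, and all differences are distal minus proximal.

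Smooth muscle contracts when calcium, bound to calmodulin, activates myosin light chain kinase, which phosphorylates the regulatory light chain and lets myosin pull on actin. Tropomyosin, calponin and caldesmon lie along the actin filaments, which are anchored in dense bodies and, at the cell surface, in dense plaques, with desmin filaments linking them. The genes of this apparatus are controlled by serum response factor (SRF), which binds DNA at CArG boxes, and by its coactivator myocardin (Myocd). In the colon the contractile cells form the circular and longitudinal coats and the muscularis mucosae, whose contractions mix and move the contents.

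The regional profile of a pair of libraries went against their labels, so each is called here by its label. For Hoxb13, a homeobox gene active toward the hind end of the gut, distal 1, distal 2 and proximal 1 gave 13.29 to 13.78, and proximal 2, proximal 3 and distal 3 gave 6.48 to 6.65. Every comparison below is therefore given as labelled and without the libraries labelled proximal 1 and distal 3. Because their own profiles chose them, p-values from the other 4 libraries overstate the evidence and describe only those libraries. The array medians lay between 7.90 and 8.02, and precision is limited by how few arrays there are.

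The windows below are shown because SRF sites are the sequence feature for which promoters of this gene set are known. RefSeq promoters of the mouse build GRCm38.p6 were listed for 32 of the 37 genes. None was listed for Tagln, Myh11, Actg2, Myocd and Nexn, so these were not searched. The 250 bases before each start were searched on both strands for the CArG box. A looser search also allowed 1 C or G within the 6 bases between its CC and GG. A CArG box was present for 3 of the 32 genes, namely Myl9, Fhl1 and Ldb3 (9.38%), against 1.62% of 27025 genes with a listed promoter. The looser form was present for 9 of the 32 genes (28.1%), against 9.78% of all genes, and added Acta2, Synm, Pcp4, Hspb6, Jph2 and Pdlim3. These counts describe letters in a short window, not binding, and sites farther from the start were not searched. Below, capitals mark the match, and each window ends at or before the base in front of the start.
Acta2, first match, minus strand, chr19:34255418-34255487: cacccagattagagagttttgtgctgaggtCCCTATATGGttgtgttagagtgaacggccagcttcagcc
Acta2, second match, minus strand, chr19:34255374-34255437: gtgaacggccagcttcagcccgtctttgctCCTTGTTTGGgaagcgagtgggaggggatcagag
Myl9, CArG box, plus strand, chr2:156775273-156775342: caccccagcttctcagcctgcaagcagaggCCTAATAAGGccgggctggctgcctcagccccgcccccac
Myl9, looser match, plus strand, chr2:156775335-156775404: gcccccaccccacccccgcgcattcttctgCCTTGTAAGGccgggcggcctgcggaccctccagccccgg
Fhl1, CArG box, plus strand, chrX:56779551-56779620: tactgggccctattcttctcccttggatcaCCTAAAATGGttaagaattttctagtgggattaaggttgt
Synm, looser match, minus strand, chr7:67759942-67759992: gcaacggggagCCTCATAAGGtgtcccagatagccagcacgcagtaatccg
Pcp4, looser match, plus strand, chr16:96467469-96467538: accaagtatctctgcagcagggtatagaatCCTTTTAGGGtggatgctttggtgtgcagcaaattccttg
Myl9 and Acta2 code for core contractile proteins. Fhl1, Synm and Pcp4 are shown because their levels, given below, passed the test in the comparison of 4 libraries, the former pair higher in the distal and Pcp4 higher in the proximal libraries.

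Most contractile genes were lowest in libraries labelled proximal 2 and 3 and close together in the other 4. The library labelled proximal 3 was the lowest of all 6 for 33 of the 37 genes, against 14.2% of all genes. The libraries labelled proximal 2 and 3 were the lowest pair for 27 genes, against 12.3% of all genes. The median deviation of the 37 genes from their own means was -0.098 and -0.28 in libraries labelled proximal 2 and 3. It was 0.092 in that labelled proximal 1 and 0.085, 0.12 and 0.10 in the distal ones. The shifts were small: the highest and lowest library of a gene lay apart by a median of 0.63, against 0.50 over all genes. In bulk tissue, fewer muscle cells and less RNA of these genes per cell cannot be told apart.

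**Figure D1:**
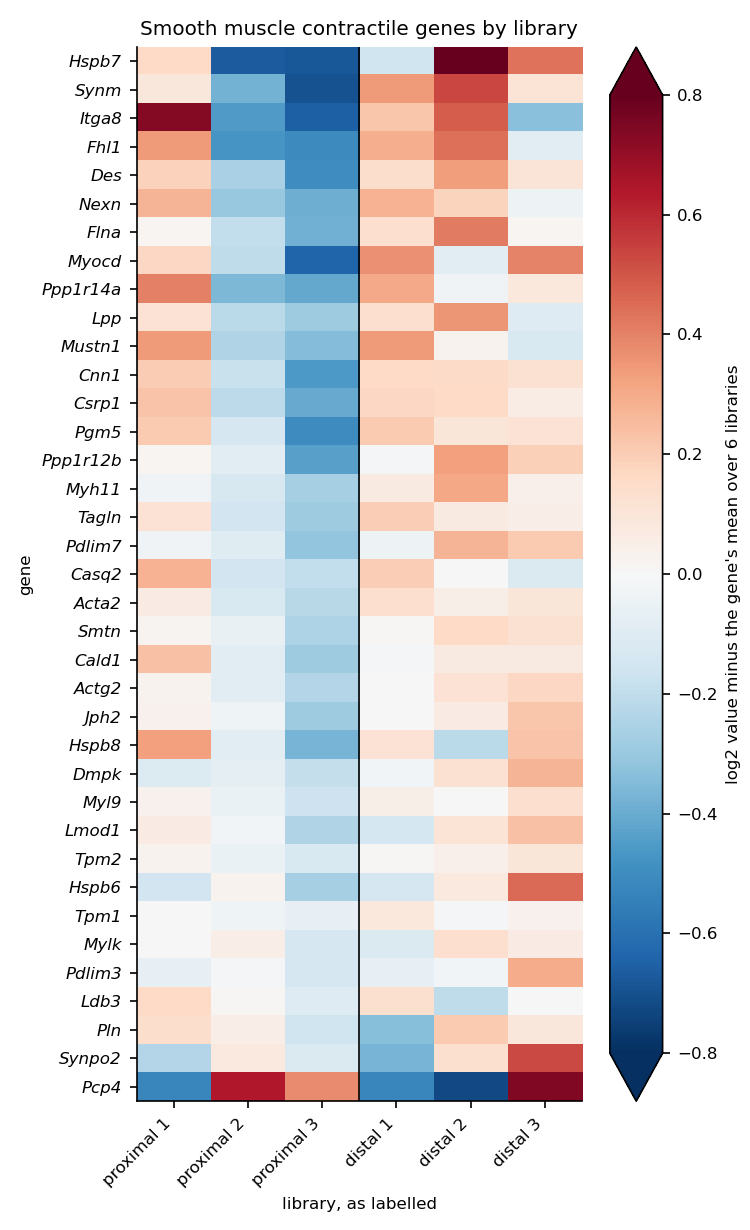
Heat map of the 37 smooth muscle genes (rows, ordered by their difference in 4 libraries) in the 6 libraries as labelled (columns). Colour is the log2 value minus the gene's mean over 6 libraries, cut at 0.8 in each direction; the column of proximal 3 is the lowest for 33 genes, and Pcp4 in the bottom row runs the other way.

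As labelled, 34 of the 37 genes were higher and 3 lower in distal libraries, with a median difference of 0.22 against -0.020 over all genes, but no gene passed the test. Limma called 0 of the 37 genes and 0 of all 18193 (0%) at an adjusted p of 0.05, with adjusted p from 0.824 to 0.975 among the 37. At an unadjusted p of 0.05 there was 1 of the 37, Synm, which is no larger a share than the 3.05% of all genes (554) at that level, and by a plain test with a pooled variance there were 0 of the 37. The 3 distal values all lay above the 3 proximal values for 3 genes, Myh11, Synm and Dmpk, against 2.73% of all genes. Without the library labelled proximal 3 the median difference of the 37 genes was 0.12.

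Without the libraries labelled proximal 1 and distal 3, limma called 7 of the 37 genes higher in distal libraries, against 7.71% of all genes, and 1 higher in proximal libraries, against 11.5% of all genes. Higher in distal libraries were Synm, Itga8, Fhl1, Des, Nexn, Lpp and Csrp1, with differences from 0.47 to 0.98. Pcp4 was the gene higher in proximal libraries. The other 29 genes did not pass, with adjusted p from 0.0517 to 0.983. Both distal values lay above both proximal values for 28 genes, against 25.6% of all genes, and below them for 1, against 36.6%. The median difference of the 37 genes was 0.27, against -0.045 over all genes. Leaving out 1 more library leaves 1 library in a group, so no calls were read from it. The calls thus rest on 2 libraries in each group, and whether they hold with fewer cannot be told. With 1 more left out, the differences ran from 0.815 to 1.135 for Synm, 0.78 to 1.04 for Itga8 and 0.78 to 0.93 for Fhl1. They ran from 0.495 to 0.735 for Des, 0.525 to 0.625 for Nexn, 0.385 to 0.605 for Lpp and 0.375 to 0.565 for Csrp1. For Pcp4 they ran from -1.26 to -1.0. With a trended and robust variance prior 16 of the 37 passed, 15 of them higher in distal, and so did 4577 of all genes (25.2%). Of all 3494 genes called, 40.1% were higher in distal libraries, and this share was 50.3% after quantile normalization, 33.1% after centring arrays on the median of probe sets and 54.7% after centring on that of genes. Under these 3 scalings 9, 5 and 10 of the 37 genes were called higher in distal libraries, against 9.55%, 6.5% and 10.4% of all genes. Each time 1 was called lower, against 9.44%, 13.1% and 8.56% of all genes.

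**Figure D2:**
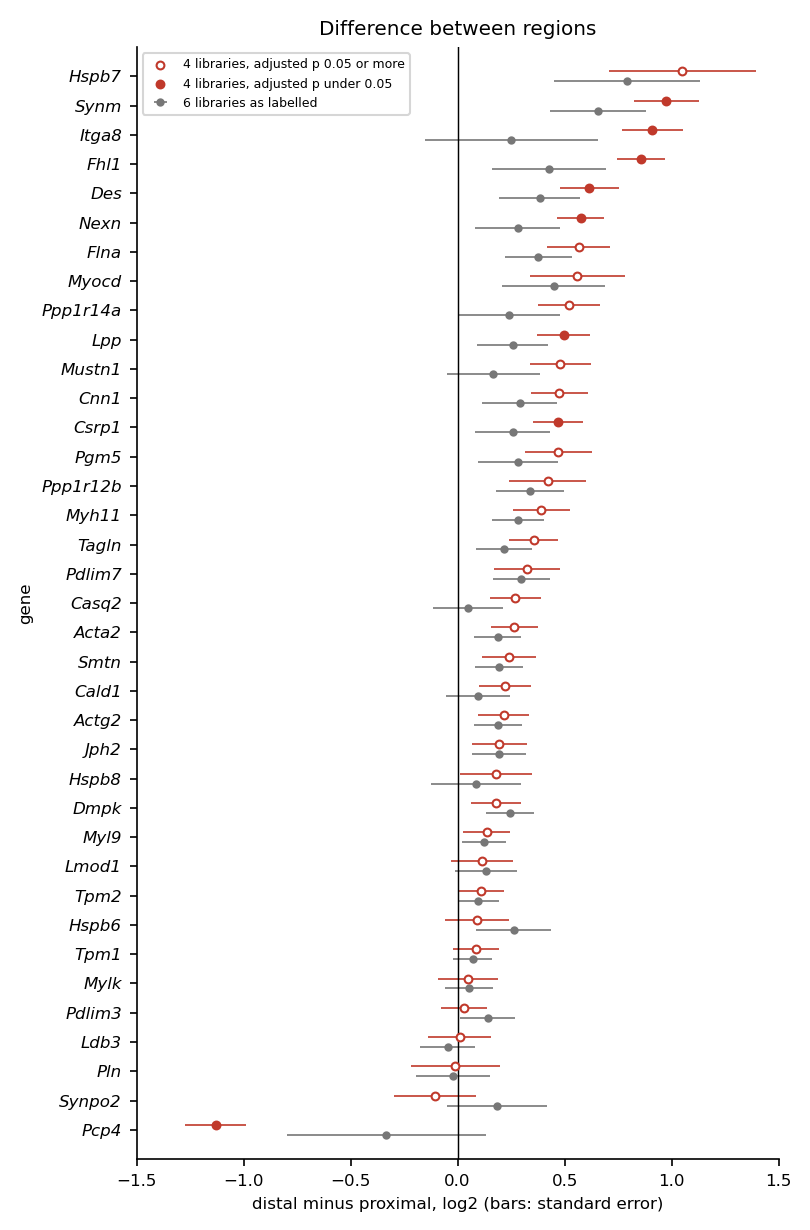
Difference between distal and proximal libraries (horizontal axis, log2, bars are the standard error) for each of the 37 genes, as labelled with 6 libraries (grey) and with 4 libraries (red, filled where the limma adjusted p is under 0.05). In the 4-library comparison 7 filled points lie to the right of 0 and 1, Pcp4, to the left.

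The actin and myosin filaments were described by their most direct genes. Acta2, the alpha actin of smooth muscle, measured 14.16, 13.97 and 13.87 in libraries labelled proximal 1, 2 and 3 and 14.23, 14.14 and 14.19 in those labelled distal 1, 2 and 3. Actg2, the gamma actin of visceral smooth muscle, measured 13.81, 13.70 and 13.55 in the proximal and 13.78, 13.90 and 13.95 in the distal libraries, in the same order. For both actins the lowest values were those of proximal 3 and then proximal 2, while proximal 1 lay among the distal values. Acta2 differed by 0.19 (SE 0.11, limma adjusted p = 0.824) as labelled and by 0.27 (SE 0.11, limma adjusted p = 0.158) in 4 libraries, and Actg2 by 0.19 and 0.21.

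Myh11, the heavy chain of smooth muscle myosin, measured 13.51, 13.41 and 13.27 in libraries labelled proximal 1, 2 and 3, and 13.61, 13.85 and 13.58 in those labelled distal. The distal values lay above every proximal value, with means of 13.68 ± 0.15 and 13.40 ± 0.12 (SD, n = 3 each). The difference was 0.28 (SE 0.12, limma adjusted p = 0.824), and 0.39 (SE 0.13, limma adjusted p = 0.102) in 4 libraries. Myl9, the regulatory light chain that the kinase phosphorylates, measured 14.06, 13.97 and 13.86 in the proximal and 14.07, 14.03 and 14.16 in the distal libraries. Its groups overlapped and its difference of 0.12 (SE 0.10) did not pass.

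Of the proteins that line the actin filaments, Tagln, or transgelin, measured 14.34, 14.07 and 13.94 in libraries labelled proximal 1, 2 and 3, and 14.42, 14.30 and 14.28 in those labelled distal. Cnn1, calponin, measured 12.64, 12.26 and 11.98 in the proximal and 12.60, 12.59 and 12.56 in the distal libraries. The distal values of Cnn1 were alike, 12.58 ± 0.021 (SD, n = 3), while the proximal values spread over 0.66, so that its difference of 0.29 (SE 0.17) did not pass. In 4 libraries it was 0.47 (SE 0.13, limma adjusted p = 0.0641), and that of Tagln 0.35 (SE 0.12, limma adjusted p = 0.0916). Smtn, smoothelin, a marker of contractile smooth muscle, measured 11.83, 11.75 and 11.56 in the proximal and 11.82, 11.97 and 11.93 in the distal libraries, with groups that overlapped. Cald1, caldesmon, the leiomodin Lmod1, which nucleates actin filaments, and the tropomyosins Tpm1 and Tpm2 differed by 0.093, 0.13, 0.070 and 0.097 as labelled and by 0.22, 0.11, 0.085 and 0.11 in 4 libraries, and none of these 4 passed.

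The enzymes that set light chain phosphorylation did not pass either. Mylk, the light chain kinase, measured 14.35, 14.40 and 14.21 in libraries labelled proximal 1, 2 and 3, and 14.23, 14.48 and 14.41 in those labelled distal. These groups overlapped, with a difference of 0.053 (SE 0.11), and in 4 libraries 0.050, which was -0.010 after centring each array on its median. Ppp1r12b, a targeting subunit of myosin phosphatase, differed by 0.34 (SE 0.16) as labelled and by 0.42 (SE 0.18, limma adjusted p = 0.166) in 4 libraries. Ppp1r14a, the inhibitor of that phosphatase known as CPI-17, differed by 0.24 (SE 0.24) and by 0.52 (SE 0.14, limma adjusted p = 0.0626). Its value in the library labelled proximal 1, 10.19, was the highest of the 6, against 9.43 and 9.38 in those labelled proximal 2 and 3. The kinase Dmpk differed by 0.25 (SE 0.11) and 0.18 (SE 0.12), with its highest value in the library labelled distal 3.

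Among the proteins that anchor the filaments, Des measured 13.39, 12.95 and 12.71 in libraries labelled proximal 1, 2 and 3, and 13.35, 13.54 and 13.31 in those labelled distal. Synm, synemin, an intermediate filament protein that joins desmin, measured 11.98, 11.51 and 11.19 in the proximal and 12.23, 12.42 and 12.00 in the distal libraries. For both genes the libraries labelled proximal 2 and 3 stood below the other 4, and for Synm the labelled groups did not overlap. Des differed by 0.38 (SE 0.19) as labelled and was higher by 0.62 (SE 0.14, limma adjusted p = 0.0368), or 1.53-fold, in distal libraries among the 4. Synm differed by 0.66 (SE 0.22, limma adjusted p = 0.824), the largest after Hspb7, and was higher by 0.98 (SE 0.15, limma adjusted p = 0.0142), or 1.97-fold, in the 4. The second probe set of each gene gave 0.68 for Des and 1.01 for Synm in the 4 libraries. That of Des lay at 6.01 to 6.80, near 6.54, the lower quartile over genes.

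Itga8, the alpha 8 integrin subunit that binds matrix at the cell surface, measured 9.46, 8.27 and 8.07 in libraries labelled proximal 1, 2 and 3, and 8.95, 9.21 and 8.39 in those labelled distal. Fhl1, a LIM domain protein of muscle, measured 13.86, 13.05 and 13.01 in the proximal and 13.81, 13.96 and 13.43 in the distal libraries. In both, the library labelled distal 3 lay between the proximal pair and the other libraries and nearer the former, and that labelled proximal 1 lay nearer distal 1 and 2. As labelled Itga8 differed by 0.25 (SE 0.40) and Fhl1 by 0.43 (SE 0.27). In 4 libraries Itga8 was higher in distal by 0.91 (SE 0.14, limma adjusted p = 0.0143), or 1.88-fold, and Fhl1 by 0.86 (SE 0.11, limma adjusted p = 0.00874), or 1.81-fold. The second probe set of Itga8, at 3.75 to 4.13, gave 0.135 there and did not pass (limma adjusted p = 0.527). That of Fhl1, at 4.79 to 6.47, gave 1.11 (limma adjusted p = 0.0052).

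Lpp, a LIM protein of focal adhesions, measured 13.97, 13.64 and 13.57 in libraries labelled proximal 1, 2 and 3, and 13.99, 14.21 and 13.75 in those labelled distal. Csrp1, a cysteine and glycine rich LIM protein that binds the actin cytoskeleton, measured 12.43, 11.99 and 11.80 in the proximal and 12.37, 12.36 and 12.26 in the distal libraries. Nexn, nexilin, an actin binding protein, measured 9.98, 9.41 and 9.32 in the proximal and 9.99, 9.89 and 9.67 in the distal libraries. All 3 were lowest in libraries labelled proximal 2 and 3, and their labelled groups overlapped. In 4 libraries they were higher in distal by 0.50, 0.47 and 0.57, with limma adjusted p of 0.0486, 0.0482 and 0.0244. All 8 probe sets of Lpp passed in the 4 libraries when each was fitted on its own, with differences from 0.50 to 1.32, and 7 of the 8 lay above the 0.50 of the brightest. The second probe set of Csrp1 gave 0.33 and did not pass (limma adjusted p = 0.180).

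The rest of the anchoring proteins did not pass in either comparison. Flna, the actin cross-linker filamin A, differed by 0.38 (SE 0.16) as labelled and by 0.57 (SE 0.15) in 4 libraries, where its limma adjusted p of 0.0517 was the nearest to the threshold. When all probe sets were fitted, not 1 for each gene, its probe set passed (limma adjusted p = 0.0479). Pgm5, a protein of dense plaques known as aciculin, differed by 0.28 and 0.47. Mustn1, a small muscle protein, differed by 0.17 and 0.48, and Pdlim7, a PDZ and LIM protein of actin filaments, by 0.30 and 0.33. Ldb3, a PDZ and LIM protein, measured 11.50, 11.35 and 11.24 in libraries labelled proximal 1, 2 and 3, and 11.47, 11.14 and 11.34 in those labelled distal, with no order by label. The differences of Ldb3 were -0.047 as labelled and 0.010 in 4 libraries, and those of the related Pdlim3 0.14 and 0.030, and in the 4 libraries centring on the array median turned the sign of both.

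Of the 4 genes of calcium handling, Pcp4 passed, in the 4 libraries, and Pln, Jph2 and Casq2 did not. Pcp4, a small regulator of calmodulin that is also made by neurons, measured 11.15, 12.31 and 12.05 in libraries labelled proximal 1, 2 and 3, and 11.15, 10.95 and 12.41 in those labelled distal. The values of proximal 2, proximal 3 and distal 3 lay at 12.05 to 12.41 and those of the other 3 libraries at 10.95 to 11.15, so that the labelled groups overlapped. As labelled the difference was -0.33 (SE 0.47, limma adjusted p = 0.856). Without those libraries Pcp4 was 2.19-fold lower in distal libraries (-1.13, SE 0.14, limma adjusted p = 0.00777), the largest such difference of the 37 genes in size. Pln, the inhibitor of the calcium pump of the sarcoplasmic reticulum, measured 9.69, 9.60 and 9.39 in the proximal and 9.21, 9.76 and 9.64 in the distal libraries, which overlapped. Its difference was -0.023 (SE 0.17), and -0.010 (SE 0.21) in 4 libraries, and turned positive after quantile normalization. Jph2, junctophilin, which ties the surface membrane to the reticulum, and Casq2, the calcium store protein calsequestrin, differed by 0.19 and 0.050, and by 0.20 and 0.27 in 4 libraries, without passing.

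Myocd measured 10.82, 10.45 and 10.01 in libraries labelled proximal 1, 2 and 3, and 11.02, 10.56 and 11.05 in those labelled distal. It was thus lowest in the library labelled proximal 3, and its values in those labelled proximal 2 and distal 2 were close. The difference was 0.45 (SE 0.24) as labelled and 0.56 (SE 0.22, limma adjusted p = 0.140) in 4 libraries. The small heat shock proteins, chaperones abundant in muscle, varied from gene to gene. Hspb7 measured 7.90, 7.07 and 7.06 in the proximal and 7.58, 8.65 and 8.17 in the distal libraries, the widest range of the 37 genes, and its difference of 0.79 (SE 0.34) and of 1.05 (SE 0.34, limma adjusted p = 0.0921) in 4 libraries did not pass. The latter was 0.515 without distal 2 and 1.58 without distal 1, each with 1 library left in the distal group. Hspb6 differed by 0.26 and 0.090, and Hspb8 by 0.087 and 0.18.

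Of the libraries whose regional profile went against their labels, distal 3 stood apart here from the pattern of all genes. Proximal 1 lay nearer distal 1 and 2 for most of the 37 genes and for most of all genes. In the library labelled distal 3 all 37 genes lay above the mean of the libraries labelled proximal 2 and 3, by a median of 0.33 and a range of 0.045 to 1.10, where the median over all genes was 0. This library was nearer the pair labelled proximal 2 and 3 than that labelled distal 1 and 2 for 8 of the 37 genes (21.6%). The share over all genes was 70.9%. The 8 were Synpo2, Mustn1, Itga8, Casq2, Pcp4, Pln, Fhl1 and Lpp. Of the 8 members called in the 4 libraries it held for 4, Itga8, Pcp4, Fhl1 and Lpp, against 90.1% of all 3494 genes called. For the other 4 called genes, Synm, Des, Nexn and Csrp1, this library lay nearer the distal pair. By the same measure proximal 1 was nearer to distal 1 and 2 for 32 of the 37 genes (86.5%), against 57.2% of all genes, and above the mean of the proximal pair by a median of 0.28, against -0.025 over all genes. Its lowest value relative to that mean was -1.03, for Pcp4, and its highest 1.29, for Itga8. No test was made of these shares, since both libraries were compared with means of the others and genes are not replicates.

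Members with high values had narrower ranges. For the 12 with a mean of at least 13 the highest and lowest library lay apart by a median of 0.44, against 0.69 for the rest. The highest value of any gene probe set in the table was 15.07, and whether bright probe sets are compressed was not tested.

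**Figure D3:**
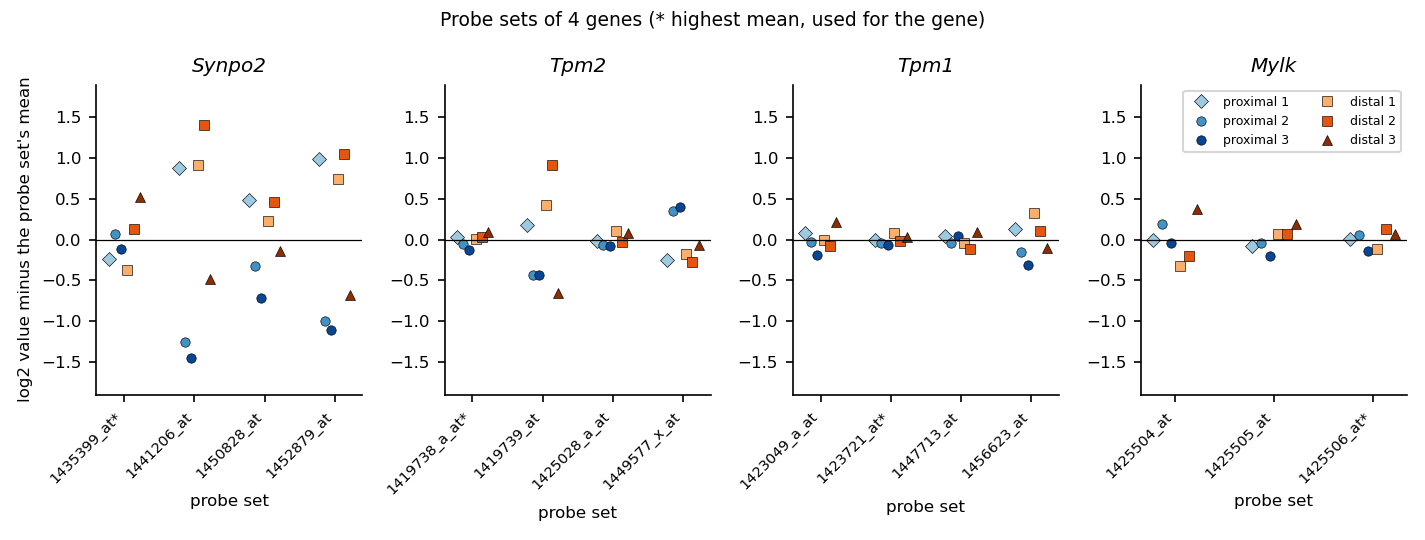
Values of each probe set of Synpo2, Tpm2, Tpm1 and Mylk (vertical axis, log2 minus the probe set's mean) in the 6 libraries as labelled, with an asterisk at the probe set used for the gene. For Synpo2 the starred probe set is highest in the library labelled distal 3, while 1441206_at and 1452879_at are far higher in libraries labelled proximal 1, distal 1 and distal 2 than in those labelled proximal 2 and 3.

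Probe sets of a gene did not always tell the same story. Of the 22 genes with several, the sign of the difference was not the same for all probe sets in 7 genes as labelled and in 10 in the 4 libraries. The widest gap was in Synpo2, synaptopodin 2, an actin bundling protein of the dense body. Its brightest probe set, 1435399_at, measured 12.18, 12.49 and 12.30 in libraries labelled proximal 1, 2 and 3, and 12.04, 12.54 and 12.94 in those labelled distal, a difference of 0.18 (SE 0.23) as labelled and -0.10 (SE 0.19, limma adjusted p = 0.749) in 4 libraries. The probe set 1441206_at measured 12.02, 9.89 and 9.70 in the proximal and 12.06, 12.55 and 10.67 in the distal libraries. The probe set 1452879_at measured 11.53, 9.55 and 9.44 in the proximal and 11.29, 11.59 and 9.86 in the distal libraries. These were low in libraries labelled proximal 2, proximal 3 and distal 3, the libraries with low Hoxb13, and the brightest was highest in that labelled distal 3. Fitted over all 34945 probe sets, they were higher by 2.51 (SE 0.19, limma adjusted p = 0.00186) and 1.95 (SE 0.14, limma adjusted p = 0.00177) in the distal libraries of the 4, and the dimmer 1450828_at by 0.86 (limma adjusted p = 0.0222). Where these probe sets lie in the transcripts of Synpo2 was not analysed here.

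Among the tropomyosins, the 2 brightest probe sets of Tpm2 differed by little, but 1419739_at measured 10.37, 9.76 and 9.76 in libraries labelled proximal 1, 2 and 3, and 10.61, 11.10 and 9.53 in those labelled distal. In 4 libraries it was higher in distal by 1.09 (SE 0.18, limma adjusted p = 0.0137), and 1449577_x_at, a kind of probe set that can match several transcripts, was lower by 0.61 (-0.605, SE 0.11, limma adjusted p = 0.0190). The brightest probe set of Tpm1, 1423721_at, stayed between 14.22 and 14.37 in all 6 libraries, and 1456623_at differed most, with 9.33, 9.04 and 8.88 in the proximal and 9.52, 9.30 and 9.09 in the distal libraries. None of the 4 probe sets of Tpm1 passed. Of the 3 of Mylk, 1425505_at differed by 0.19 in 4 libraries and 1425504_at by -0.34, which did not pass (limma adjusted p = 0.135). Ppp1r12b and Cald1 also had dimmer probe sets that were higher in distal in the 4 libraries while the brightest was not called. They were 1445850_at of Ppp1r12b (1.17, limma adjusted p = 0.00790) and 1433146_at and 1433147_at of Cald1 (0.79 and 1.17, limma adjusted p = 0.0126 and 0.00357). Over all 83 probe sets, 25 were called higher in distal libraries, against 9.37% of all probe sets, and 2 lower, against 12.2%. Probe sets of a gene share their transcripts, and 8 of the 25 were those of Lpp.

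Other genes were taken from 4 further lists of smooth muscle pathways, which are not limited to genes made by muscle alone. Their counts are to be read against 14.2% of all genes lowest in the library labelled proximal 3. In the 4 libraries the shares over all genes were 7.71% higher and 11.5% lower in distal. Of 23 genes of calcium handling and ion channels, 15 were lowest in the library labelled proximal 3, and their median difference was 0.17 as labelled and 0.34 in 4 libraries, where 5 passed as higher and 1 as lower in distal. The smallest p values there were those of Stim1, a calcium sensor of the reticulum (difference 0.73), and of the calcium pumps Atp2b4 (0.98) and Atp2a3 (0.59). Of 29 genes of dense plaques and the membrane skeleton, 17 were lowest in proximal 3, and 4 passed as higher and 1 as lower in distal in the 4 libraries, where their median difference was 0.135, led by Sorbs2 (0.78), Parva (0.52) and Flnc (0.80). Of 22 transcription factors, 10 were lowest in proximal 3 and 3 passed as higher in distal, Prdm6 (1.18), Mef2d (0.68) and Mef2c (0.58), with a median difference of 0.21. Of 21 receptors and signalling genes of muscle tone, 7 were lowest in proximal 3, the median difference was 0.075 with 12 higher and 9 lower in distal, and 3 passed in each direction, led by the serotonin receptor Htr4 (1.71), the endothelin receptor Ednrb (-1.77) and the purine receptor P2ry1 (-1.18), which other cells of the wall also make. As labelled, limma called 0 genes of these 4 lists.

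**Figure D4:**
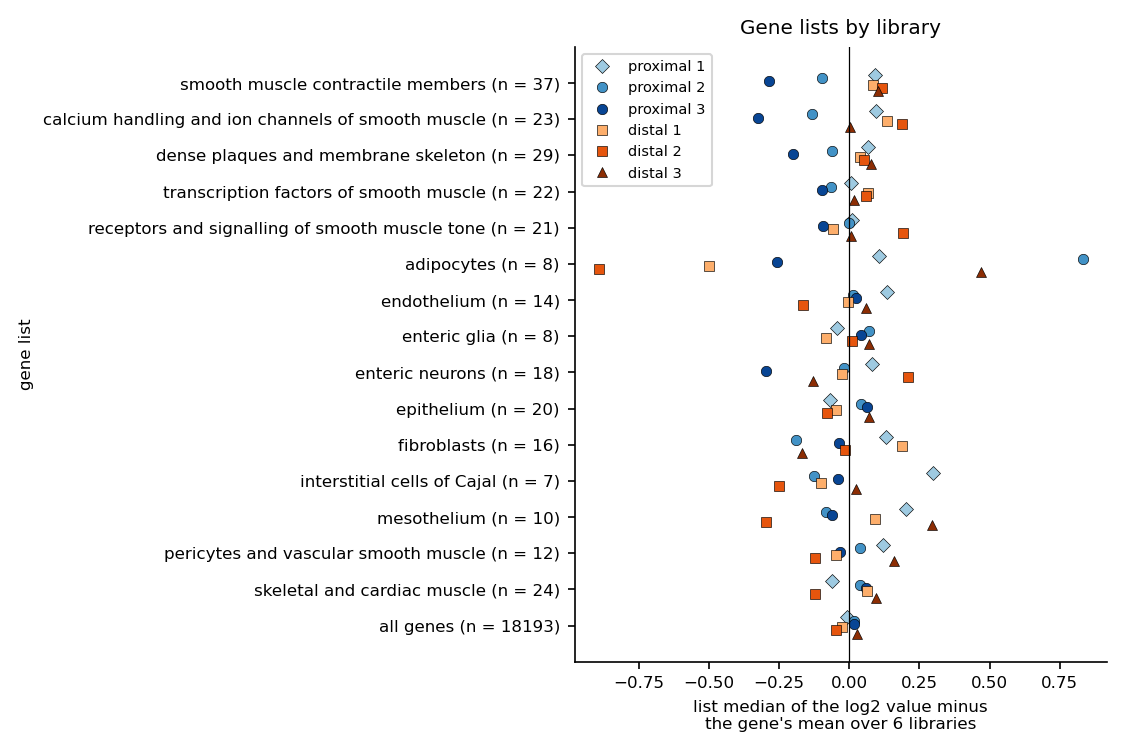
Median over each gene list of the log2 value minus the gene's own mean (horizontal axis), for the 6 libraries as labelled, with the number of genes measured in each list. The smooth muscle lists at the top have proximal 3 as their lowest library, the epithelial list stays between -0.080 and 0.070, and pancreatic acinar cells are not drawn because their range would set the scale.

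Markers of other cells moved between libraries too, and their part in the differences above was not tested. Of all genes 14.2% were lowest in the library labelled proximal 3. In the 4 libraries 7.71% of all genes passed as higher and 11.5% as lower in distal, and the counts below are to be read against these shares. The 20 epithelial markers had a median deviation of 0.043 and 0.062 in libraries labelled proximal 2 and 3 and 0.070 in that labelled distal 3, against -0.068, -0.048 and -0.080 in proximal 1 and distal 1 and 2. Their summed linear level ran from 269600 to 302119 in proximal and from 268479 to 302054 in distal libraries, with 3 of 20 lower in distal in the 4 libraries and none higher. The 16 fibroblast markers had a median deviation of -0.19 in proximal 2, -0.037 in proximal 3 and -0.17 in distal 3, against 0.13, 0.19 and -0.017 in proximal 1 and distal 1 and 2. In the 4 libraries 14 of the 16 were higher in distal, 2 of them past the test, with a median difference of 0.21, against 0.27 for the contractile genes. Only 1 fibroblast marker was lowest in proximal 3. Of 18 markers of enteric neurons, 12 were lowest in that library, with a median deviation of -0.30, and in the 4 libraries 5 passed as higher and 1 as lower in distal. The 12 measured markers of pericytes and vascular smooth muscle, which include Des, had a median deviation of -0.032 in proximal 3, and 3 of them were lowest there. The 8 measured adipocyte markers ranged from -0.89 in distal 2 to 0.83 in proximal 2. Skeletal and cardiac muscle markers were measured for 24 genes, 9 of them with a mean under 6.54, the lower quartile over genes. Their median deviation stayed between -0.12 and 0.096, but single genes moved in both directions. In the 4 libraries 4 of the 24 passed as higher and 3 as lower in distal, with differences from -2.07 to 1.595. Acinar genes of the pancreas were far higher in libraries labelled proximal 1 and distal 1, with a summed linear level of 59546 and 55382 against 1761 to 6305 in the other 4. The median deviation of the 37 contractile genes was 0.092 and 0.085 in this pair with high acinar levels. In the libraries labelled distal 2 and 3, with summed acinar levels of 4003 and 6305, it was 0.12 and 0.10. In those labelled proximal 2 and 3, with 1791 and 1761, it was -0.098 and -0.285. Whether acinar and contractile levels go together was not tested.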

How the data were processed

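The deposited values are log2 expression per probe set, made by the authors with RMA in Partek 6.5, per the submitters' processing notes. The log2 scale is taken from that note and from the range of 2.91 to 15.07. Other settings: not given in the sources used here. RMA makes arrays alike, so a shift of most genes would not be seen. The table's 64 control probe sets were left out. Of the rest 34945 have 1 symbol and were used. For 34741 of them the gene identifier was found in RefSeq (GRCm38.p6) and the symbol given there was taken, whether or not it differed. The highest mean over 6 arrays chose the probe set. Differences were fitted by lmFit and eBayes of limma 3.58.1 (R 4.3.3, two-sided, Benjamini-Hochberg over 18193 genes, threshold 0.05), without a block for the number in the titles. The labels do not say which numbers share an animal, so a p-value reflects only how these libraries spread, which may be technical. The calculation was tested on simulated data.

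The members, the lists, the 4-library comparison and the rule for named genes were chosen with earlier results of these data known. The rule names all 37 members. It gives library values for 12 core genes, for genes that passed, and for the 3 largest and 3 smallest differences. It names the 3 genes with the smallest p of each other list, given in the text for the 4 smooth muscle lists only. Ppp1r14a's library values, the probe sets of Synpo2, Cald1 and Ppp1r12b, and the boundary of 13 between brighter and dimmer members were chosen after the values were seen. Alternatives were the replicate block, scaling, a low filter, the choice of probe sets, the variance prior, array weights, a plain test and leaving out libraries.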

Additional observations from a re-analysis of the deposited data

How the results depend on the processing

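As labelled, 0 genes and 0 of the 37 members were called with each library left out, with the replicate block, and under each scaling, filter, probe set rule, prior and the plain test. The counts were 5579 genes (30.67%) and 13 members with array weights, and 3494 and 8 with the 4 libraries. The weights were 0.322, 6.72 and 1.572 for proximal 1, 2 and 3, and 2.505, 0.403 and 0.291 for distal 1, 2 and 3. With the replicate block the median difference of the members was 0.22. Same-numbered libraries' deviations correlated at 0.68, -0.45 and 0.68 for numbers 1, 2 and 3. Unlike numbers gave values as large, 0.73 for proximal 2 with distal 3 and -0.77 for proximal 1 with distal 3. The libraries whose profile went against their labels stood opposite the others of their group, so these values cannot show pairs. The labels do not say which numbers share an animal, so the numbers were not taken as pairs. In the 4 libraries, leaving out 1 more gave 146 to 1633 genes and 0 to 2 members. The trended robust prior gave 4577 genes and 16 members, and without probe sets ending in _s_at or _x_at the members' median was 0.37. The share of called genes that were higher in distal was 40.1% as deposited, 50.3% after quantile normalization, 33.1% after centring on the median of probe sets and 54.7% after centring on that of genes, an alternative chosen after seeing the data. Members called in these were 8, 10, 6 and 11, with 1 higher in proximal each time.

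The members whose sign turned did not pass in the comparison where it turned, unless by single probe sets of Synpo2 and Tpm2 or by the mean of those of Synpo2. As labelled signs turned in the 4 libraries for Ldb3 (0.010) and Synpo2 (-0.105), with array weights for Hspb6 (-0.020), Ldb3 (0.081), Lmod1 (-0.017), Mylk (-0.086) and Synpo2 (-0.26), with gene median centring for Ldb3 (0.017) and Pln (0.040), with quantile normalization for Pln (0.043), and with the mean of probe sets for Hspb8 (-0.0044). By probe set they turned in Hspb8 (-0.16), Dmpk (-0.077), Mylk (-0.097), Ppp1r12b (-0.053 and -0.040), Acta2 (-0.20), Tpm1 (-0.037) and Tpm2 (-0.34). Leaving out 1 library ranged from -0.12 to 0.042 for Ldb3, -0.0017 to 0.12 for Mylk, -0.135 to 0.14 for Pln, -0.033 to 0.42 for Synpo2, -0.027 to 0.23 for Cald1, -0.035 to 0.20 for Casq2, -0.078 to 0.27 for Hspb8 and -0.015 to 0.68 for Itga8. In the 4 libraries signs turned with quantile normalization for Pln (0.087), with gene median centring for Pln (0.080), and with median centring for Ldb3 (-0.050), Mylk (-0.010) and Pdlim3 (-0.030). With the mean of probe sets they turned for Dmpk (-0.10), Ldb3 (-0.24), Mylk (-0.032) and Synpo2 (1.30). By probe set they turned in Ldb3 (-0.50 and -0.23), Hspb8 (-0.19), Pdlim7 (-0.14), Jph2 (-0.10), Dmpk (-0.38), Mylk (-0.34), Ppp1r12b (-0.11 and -0.20), Tpm1 (-0.080), Tpm2 (-0.605) and Synpo2 (2.51, 0.86 and 1.95). Leaving out 1 more ranged from -0.155 to 0.17 for Ldb3, -0.010 to 0.24 for Lmod1, -0.075 to 0.17 for Mylk, -0.285 to 0.265 for Pln, -0.355 to 0.145 for Synpo2, -0.055 to 0.23 for Hspb6 and -0.030 to 0.090 for Pdlim3. The cause of these turns was not tested.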
